A study of Homo sapiens with 2 samples.

Results

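The metallothionein genes MT1A, MT1B, MT1E, MT1F, MT1G, MT1H, MT1M, MT1X and MT2A were examined in HCT116 cells with and without overexpressed HOXA5 short RNA. The 9 genes were taken from a list of names, and their probes were found through the RefSeq accession printed beside each probe on the array. All 9 genes had a probe, 11 probes in all, among 21614 genes with a probe and 50599 probes on the array. HCT116 is a widely used line of human colon cancer cells. Both groups carried the expression vector pEB, which confers resistance to blasticidin. The mock cells held the control vector, which the study calls pEB-mock. The HOXA5 short cells held the same vector carrying HOXA5 short RNA. This non-coding transcript of the HOXA5 locus lacks the first exon of the gene. Cells were kept under blasticidin, an inhibitor of protein synthesis, for 2 weeks, according to a protocol text that both samples share. That text describes only the vector with HOXA5 short RNA, so the mock sample was taken as mock from its title and its genotype label (control). Total RNA was labeled with Cy3 and each sample was hybridized to 1 single-color Agilent array, so the comparison asked which metallothionein transcripts differed in HOXA5 short cells. With 1 array per group there was no test between the groups and no replicate check, and the spread between cultures is not known. In RNA from whole cultures, fewer cells with a transcript and less of it per cell cannot be told apart.

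Metallothioneins are small, cysteine-rich proteins that bind zinc and copper ions, and also cadmium and other toxic metals. Their transcription is switched on by zinc through MTF1, a zinc-finger factor that senses free zinc and binds short metal response elements in the promoters. Glucocorticoids and oxidative stress are further known inducers. In humans, the MT1 and MT2A genes lie in a row on chromosome 16, with MT3 and MT4, which are best known from brain and from stratified epithelium. Zinc supplied by the medium is buffered by these proteins in cultured cells.

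No metallothionein gene differed by 2-fold between the arrays. Of the 9 genes, 7 were well above background on both arrays and 2, MT1G and MT1H, reached that level on neither. After each array was scaled to its 75th percentile, the log2 differences (HOXA5 short minus mock) of the 7 genes ran from -0.19 for MT1E to 0.17 for MT1B, with 3 above 0 and 4 below 0. Their median was -0.02, and that of all 11994 genes compared was also -0.02. Of all genes, 62.3% lay within the range of the 7 metallothionein genes. The count of metallothionein genes at least 2-fold higher was 0, where 0.642% of all genes compared passed, and the count at least 2-fold lower was 0, where 0.258% of all genes passed. At 1.5-fold the counts were also 0, against 2.78% of all genes higher and 1.6% lower. A count of 0 among 7 genes is near these low background shares and is not a result about metallothioneins. The spread of a single spot, taken as the SD of the log2 difference over the spots of 593 probes printed at least 5 times, was 0.26. All 7 gene values were smaller than this spread. It covers the array surface only.

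The promoters are shown because they hold the elements through which zinc acts on these genes. The RefSeq promoter table (GRCh38.p14, 250 bases before to 50 bases after the start site) held 4 of the 9 genes: MT2A, MT1B, MT1H and MT1X. The core of the metal response element was searched as TGCACNC and TGCGCNC on both strands, and no 2 matches overlapped in these promoters. Each of the 4 promoters had a match on the gene's strand whose first base lay 53 or 54 bases before the start site. Below, these are given with 10 bases on each side, in capitals the core, from the + strand of chromosome 16, on which all 4 genes lie.
MT2A, chr16:56608520-56608546: gcggggctttTGCACTCgtcccggctc
MT1B, chr16:56651823-56651849: gcggggcctcTGCACCCcaccacctcc
MT1H, chr16:56669751-56669777: gcagggtctcTGCACCCggctccctcc
MT1X, chr16:56682407-56682433: gcggggcctcTGCGCCCggccctcttc

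MT1X had the variant core with G in place of A, and the other 3 genes had the core TGCACNC at this place. Further upstream, between 78 and 88 bases before the start site, each promoter had a match on the opposite strand. It is printed on the + strand, so that the capitals read as the reverse complement of the core.
MT2A, chr16:56608486-56608512: agcgcggggcGTGTGCAggcagcgccc
MT1B, chr16:56651797-56651823: cagcaggggtGAGTGCAagggccaggg
MT1H, chr16:56669726-56669752: tcagtgggtcGGGTGCAagggtggggc
MT1X, chr16:56682382-56682408: cagcaggggcGGGTGCAaggacgaggc

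In all, the MT2A promoter held 8 matches, the MT1H promoter 8, the MT1X promoter 4 and the MT1B promoter 3. Of the 35116 promoters of the table, 29.6% held at least 1 match, 2.30% held at least 3, 0.601% held at least 4 and 0.0199% held at least 8. TATAAA, searched on the gene's strand, was found 29 bases before the start of MT2A and 30 bases before the starts of MT1B and MT1X, and was not found in these letters in the MT1H window. Of all promoters, 7.33% held TATAAA on the gene's strand. A GC box (GGGCGG on either strand), the binding sequence of the general activator SP1, was present in all 4, as in 45.0% of all promoters. In MT1X, 1 of the 2 GC boxes overlapped a metal response element core, and those of the other 3 promoters did not. A match of letters describes the sequence and does not show that a factor binds.

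**Figure D1:**
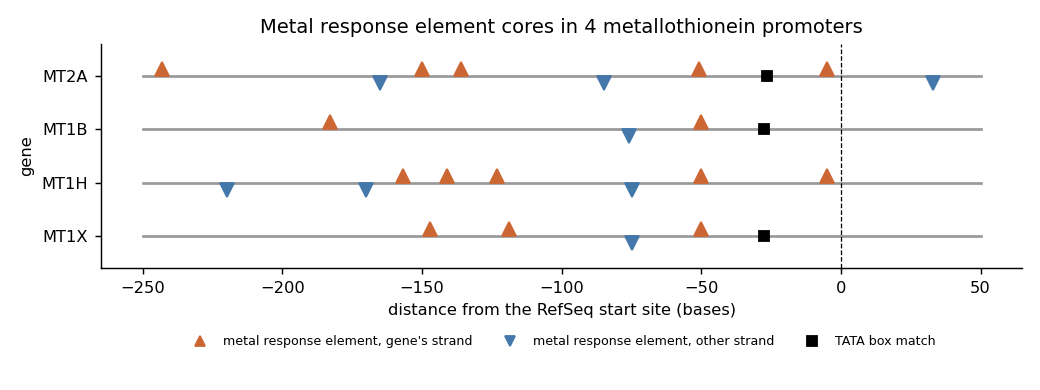
Positions of the metal response element cores and TATA box matches in the 4 metallothionein promoters of the RefSeq table, with the distance from the start site in bases on the horizontal axis and 1 row per promoter. Upward triangles mark the centers of cores on the gene strand, downward triangles those on the other strand, and squares TATA box matches. Each row has an upward triangle whose core begins 53 or 54 bases before the start site, and MT2A and MT1H have 8 cores each.

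MT2A codes for the single human protein of the second metallothionein class and is the one member of that class on this list. Its probe gave 22265 ± 2226 in mock and 30606 ± 3061 in HOXA5 short cells. Signals are linear background-corrected units, and ± is the error that the scanner software gives for the spot. For the metallothionein probes compared, this error was about 10% of the signal, so it is not a spread measured between spots. The measured single-spot spread was larger than the resulting error of 0.20, at 0.26 overall and 0.23 for signals of 1000 or more. Before scaling the MT2A probe was 1.37 times as bright on the HOXA5 short array. The 75th percentile of that array was itself 1.23 times that of the mock array, and the scaled log2 difference of MT2A was 0.16, within its error of 0.20.

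MT1A, MT1B and MT1E code for MT1 isoforms and had bright probes. The MT1A probe gave 24232 ± 2423 in mock and 26455 ± 2645 in HOXA5 short cells, a scaled log2 difference of -0.18 with an error of 0.20. The MT1B probe gave 11996 ± 1200 and 16660 ± 1666, a difference of 0.17 (1.13-fold). The signs of these 2 genes were opposite, and both differences were smaller than their errors. MT1E was read by 2 probes. One gave 18184 ± 1818 and 20451 ± 2045, a scaled log2 difference of -0.13. The other gave 20027 ± 2003 and 20820 ± 2082, a scaled log2 difference of -0.25. The 2 MT1E probes differed by 0.11, less than their combined error of 0.29, and averaged -0.19 (0.876-fold), the lowest value of the 7 genes.

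MT1M and MT1F, further MT1 isoforms, were nearest to 0. The MT1M probe gave 2504 ± 250 in mock and 2896 ± 290 in HOXA5 short cells, a log2 difference of -0.09. The MT1F probe gave 151 ± 15.1 and 184 ± 18.4, a difference of -0.02. Neither exceeded its error.

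MT1X, the last MT1 gene of the row, was read by 2 probes that differed from each other. The dimmer probe gave 1163 ± 116 in mock and 1346 ± 135 in HOXA5 short cells, a log2 difference of -0.09. The brighter probe gave 6664 ± 666 and 10200.4 ± 1020.04, a difference of 0.31 (1.24-fold). The gap between the probes was 0.40, above their combined error of 0.29, and the files used here do not say which transcript form each probe reads. Their mean, 0.11, is therefore less certain than the other gene values. The brighter MT1X probe was also 1 of the 2 metallothionein probes whose difference exceeded the error of 0.20, which is a share of the signal. The other was the lower of the MT1E probes at -0.25, and the 20 well-measured spots around it had a median of -0.18. With the median of the surrounding spots subtracted, MT1E was -0.08 in place of -0.19 and MT1A was -0.06 in place of -0.18, while MT1X stayed at 0.11 and MT2A at 0.16.

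MT1G and MT1H code for the remaining MT1 isoforms of the list. The MT1G probe gave 1.76 ± 1.77 in mock and 1.90 ± 1.91 in HOXA5 short cells. The MT1H probe gave 1.59 ± 1.60 and 1.74 ± 1.75. Both signals were about as large as their errors, so no difference is given. The lowest signal called well above background was 7.74 in mock and 8.16 in HOXA5 short cells, and a transcript whose probe signal lies under these cannot be told from background.

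**Figure D2:**
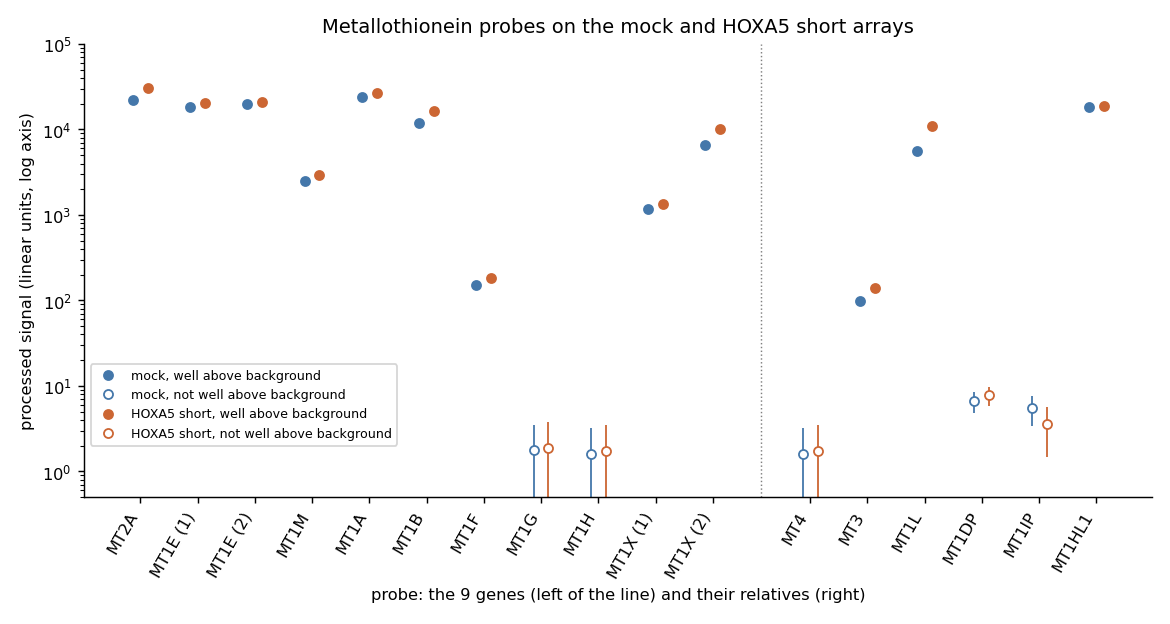
Processed signal (linear units on a log axis) of the 11 probes of the 9 metallothionein genes, left of the dotted line, and of the 6 probes of related genes, right of it, on the mock and HOXA5 short arrays. Vertical bars are the error that the scanner software gives, cut at the lower axis limit where they reach it, and open circles were not well above background. MT1G and MT1H are open on both arrays, and at MT1L the signals lie farther apart (5666 and 10911) than at the other filled pairs.

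The metallothionein sequences are closely alike, and the probe sequences were not used here. A probe may therefore read more than the gene it is named for, and how much each signal holds of its neighbors in the family was not tested. For this reason the other metallothionein genes and pseudogenes were read beside the 9. Of 11 such relatives, 6 had a probe and 3 were well above background on both arrays.

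MT1L, a transcribed pseudogene between MT2A and MT1E, had the highest log2 difference of the family. Its probe gave 5666 ± 567 in mock and 10911 ± 1091 in HOXA5 short cells, a scaled log2 difference of 0.64 (1.56-fold) with an error of 0.20. This passed 1.5-fold but not 2-fold, and 277 genes (2.31% of those compared) had a difference at least as high. Among the 624 probes compared with signals of 5000 or more, the brightness of the MT1L probe, 29 had a log2 difference above 0.6. MT1L was thus 1 of several bright probes with a difference of this size. None of the 12 well-measured spots around the MT1L spot differed by 2-fold. The coding genes on each side of MT1L, MT2A and MT1E, had differences of 0.16 and -0.19. MT3, a form known from brain, gave 97.7 ± 9.90 and 140 ± 14.1, a log2 difference of 0.21. MT1HL1, a coding gene outside the cluster, gave 18269 ± 1827 and 19008 ± 1901, a difference of -0.25. MT4 and the pseudogenes MT1DP and MT1IP were not well above background in mock or in HOXA5 short cells. Along chromosome 16 the genes compared were in the order MT3, MT2A, MT1L, MT1E, MT1M, MT1A, MT1B, MT1F and MT1X. The log2 differences of the first 3 were 0.21, 0.16 and 0.64, those of the next 3 were -0.19, -0.09 and -0.18, and those of the last 3 were 0.17, -0.02 and 0.11. Genes of like sign thus lay next to each other in part of the row under this scaling. The signs of MT1E, MT1M and MT1A changed with the scaling. Apart from MT1L and MT3, the values of the genes in the row did not exceed the error of a probe. The value of MT3 was below the single-spot spread of 0.26.

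**Figure D3:**
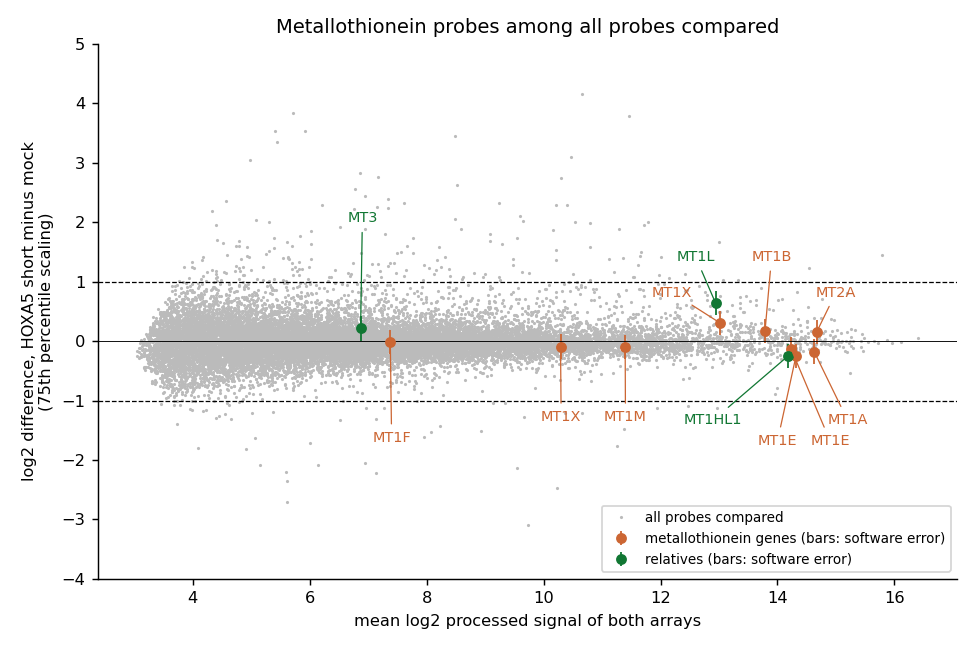
Log2 difference (HOXA5 short minus mock, scaled to the 75th percentile) against the mean log2 processed signal of both arrays, with 1 gray point for each of the 17938 probes compared. Orange points are the 9 metallothionein probes compared, green points are the 3 relatives, bars are the software error of the difference, and dashed lines mark 2-fold. The orange points lie between -0.25 and 0.31, and MT1L lies highest of the labeled points at 0.64.

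The genes that handle zinc and copper were read from a list of 36, of which 29 were compared. In this list 17 genes were above 0 and 12 below, and the median log2 difference was 0.03 beside -0.02 for all genes. No gene of the list passed 1.5-fold, where 2.78% of all genes compared were higher and 1.6% lower. A count of 0 among 29 genes is near these low shares and is not a result about the list. MTF1, the zinc sensor that activates the metallothionein genes, gave 50.6 ± 5.35 in mock and 76.1 ± 7.86 in HOXA5 short cells, a log2 difference of 0.28 with an error of 0.21. SLC30A1, the zinc exporter of the cell membrane and another gene known to be induced through MTF1, gave 123 ± 12.4 and 160 ± 16.1, a difference of 0.07. The difference of MTF1 was larger than its error and that of SLC30A1 was smaller. For signals of 50 to 200 the single-spot spread was 0.26, close to the MTF1 value. MTF1 was 0.16 with another background correction (normexp) and 0.38 with each array scaled to its median.

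The 6 zinc exporters compared had a median of 0.05, between -0.09 for SLC30A3 and 0.20 for SLC30A9, both of the SLC30 family of zinc transporters. SLC30A7, an exporter of the secretory pathway, was read by 2 dim probes that disagreed, at -0.57 and 0.83. The 11 zinc importers compared had a median of -0.09. At the low end was SLC39A4, the intestinal zinc importer, with 2546 ± 255 in mock and 2158 ± 216 in HOXA5 short cells, a log2 difference of -0.54. At the high end was SLC39A13, a zinc transporter of intracellular membranes, at 0.32. Around each of these 2 spots, 2 well-measured neighbors differed by 2-fold, and with the median of the neighbors subtracted the values were -0.07 for SLC39A4 and 0.05 for SLC39A13. Both values were thus nearer to 0 relative to the spots around them.

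The 11 copper genes were all compared, with a median of 0.04. They ran from SOD1, the copper and zinc superoxide dismutase, at -0.30 to ATP7B, a copper-exporting ATPase, at 0.17. ATP7A, the related copper-exporting ATPase, had 3 dim probes compared that disagreed, between -0.75 and 0.36. Another ATP7A probe was well above background on the HOXA5 short array only and was not compared. Of 9 genes known to respond to metals or oxidants, 8 were compared, with a median of -0.09 and 7 below 0. All 8 values were smaller than the single-spot spread of 0.26, and the median of all genes was itself -0.02. HSPA1B, an inducible heat shock protein, was lowest at -0.17, and SRXN1, which repairs oxidized peroxiredoxins, was highest at 0.01. HMOX1, heme oxygenase and a classic target of cadmium and heme, gave 1568 in mock and 1828 in HOXA5 short cells, a difference of -0.08.

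Glucocorticoid-induced genes and the receptor gene NR3C1 were listed because glucocorticoids induce metallothioneins. Of 11 genes 9 were compared, with a median of 0.02, from NR3C1, the glucocorticoid receptor itself, at -0.17 to FKBP5, a chaperone of the receptor, at 0.46. The FKBP5 signals were 41.3 and 70.0. No gene of this list passed 2-fold, where 0.642% of all genes compared were higher and 0.258% lower. Of 29 genes within 500 kb of the metallothionein cluster, 14 had a probe and 9 were compared, with a median of -0.02. They ran from HERPUD1, a protein of the endoplasmic reticulum stress response, at -0.17 to NUP93, a subunit of the nuclear pore, at 0.42. On the array, 2 of the 14 well-measured spots around the NUP93 spot differed by 2-fold. No gene near the cluster passed 2-fold. Counts of 0 among 9 genes are near these low shares and are not a result about either list.

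**Figure D4:**
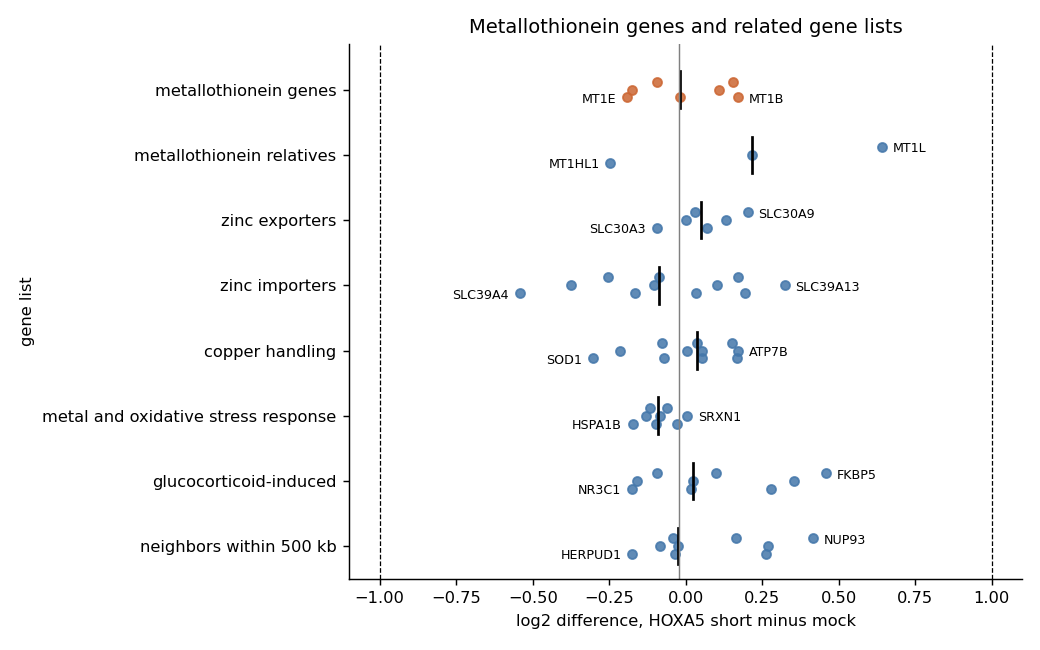
Log2 difference (HOXA5 short minus mock, scaled to the 75th percentile) of each gene compared in the metallothionein, zinc, copper, stress, glucocorticoid and neighbor lists, with 1 point per gene and 1 row per list. Black bars are the medians, the gray line is the median of all genes, and dashed lines mark 2-fold. No gene reaches a dashed line, and the medians of the lists lie between -0.09 and 0.21, the latter for the 3 metallothionein relatives.

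The scale of the array bears on the sign of single genes. Before scaling, 88.8% of the probes compared, and 9 of the 9 metallothionein probes, were brighter on the HOXA5 short array, with ratios of 1.04 to 1.53 for the metallothionein probes. When each array was scaled to its median, the metallothionein median was 0.08 and that of all genes was 0.08. When the spike-in RNAs of the labeling kit were set equal, the 2 medians were 0.41 and 0.41. The metallothionein median thus moved together with the median of all genes, and their difference stayed between -0.01 and 0.07 in all settings tried. MT1B, MT1X and MT2A were above 0 in every setting, whereas MT1A, MT1E, MT1F and MT1M changed sign between settings.

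**Figure D5:**
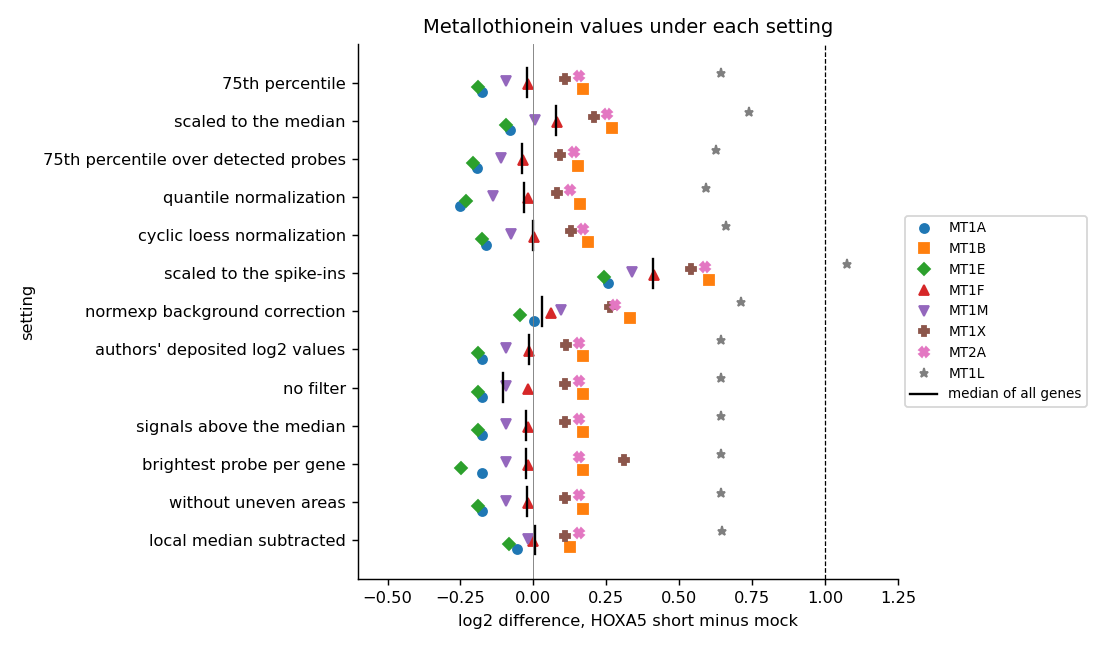
Log2 difference (HOXA5 short minus mock) of the 7 metallothionein genes compared and of MT1L under each scaling, background correction, filter or probe choice, with 1 row per setting, 1 symbol per gene and the median of all genes as a black bar. The dashed line marks 2-fold. When the arrays are scaled to the median or to the spike-ins, the 7 genes shift together with the bar, up to 0.60 for MT1B with the spike-ins. MT1L passes the dashed line with the spike-ins set equal, at 1.07. In other settings single genes move apart from the bar. With the brightest probe alone, MT1X lies at 0.31 and the bar at -0.03.

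The arrays gave 18425 (mock) and 18955 (HOXA5 short) probes well above background, and no spot was saturated. The probe named for HOXA5 gave 39.4 ± 4.32 in mock and 346 ± 34.6 in HOXA5 short cells, a log2 difference of 2.83. It was thus higher in the cells labeled as overexpressing HOXA5 short RNA. Which HOXA5 transcripts this probe reads was not tested, and the study reports that coding HOXA5 mRNA was unchanged in these cells. Of 9 markers of colon epithelium, 7 were well above background on both arrays, among them EPCAM and KRT8. The others, VIL1 at 1.88 in mock and 2.04 in HOXA5 short cells and LGALS4 at 1.92 and 2.02, were on neither. None of the endothelial or hepatocyte markers was well above background. COL1A1, a collagen of fibroblasts, was detected at 16.7 and 22.6, and CD14, a monocyte marker, was called on the HOXA5 short array only, at 9.69. Of the 9 metallothionein probes compared, 8 had enough well-measured neighbors to be assessed and none of these lay in an uneven area of the array, where 0.948% of all probes compared did. The brighter MT1X probe had 7 such neighbors, too few to be assessed, and 1 of them differed by 2-fold. It was the only 1 of the 157 well-measured spots around the 9 probes that did.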

How the data were processed

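RNA of mock and HOXA5 short HCT116 cells, 1 array each, was read by Agilent Feature Extraction (version 11.5.1.1, per the file headers). The deposited spot intensity is the processed signal, on a linear scale after background correction, with an error and detection flags in other columns. A deposited table by the authors holds log2 values of 19461 probes, each centered on its own mean. Its difference between the columns followed that of the scanner values closely across the 17938 probes compared, was offset by 0.00114 for the metallothionein probes, and departed slightly from this offset for some probes printed in several spots. Its scaling is not given in the sources used here. Groups were taken from the labels. Per the file headers, the arrays shared 1 slide and 1 scan, which therefore do not differ between the groups.

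Signals were converted to log2, control spots and spots with outlier flags were left out, and the 75th percentile over all non-control probes (35.7 for mock and 44.0 for HOXA5 short) was subtracted. Probes well above background on both arrays (17938) were compared, and a gene's value is the mean of its probes. A gene was called at 2-fold. Unversioned accessions were looked up in the RefSeq table of GRCh38.p14, and 30004 probes (59.3%) received a gene name. The arrays were annotated on hg19, so coordinates are given only for the promoter sequences. An uneven area is a spot with at least 20% of at least 10 well-measured neighbors, in a window of 7 by 7 spots, past 2-fold. For the single-spot spread, spots flagged as outliers among their copies were kept and only non-uniform spots were left out. The scaling and averaging were tested on simulated data, but the detection calls and the handling of uneven areas were not. R 4.3.3 with limma 3.58.1 was used for quantile, cyclic loess and normexp (offset 50) alternatives, and numpy 2.4.6 and pandas 2.3.3 for the rest. Other alternatives were further scalings, filters, probe choices, thresholds of 1.5-fold and 3-fold, and corrections for uneven areas. With 1 array per group the number of arrays limits the precision, and no p-value is given. The metallothionein genes, lists and settings were chosen with earlier results of these data known. Of each list the highest and lowest gene, any gene past 2-fold, MTF1 and SLC30A1 are named. HMOX1, SLC30A7, ATP7A and the markers named were chosen after their values were seen.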

Additional observations from a re-analysis of the deposited data

How the results depend on the processing

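In 14 alternatives the count of metallothionein genes past the threshold was 0 in both directions. With the spike-ins set equal, the median log2 difference rose to 0.41 for the metallothionein genes and to 0.47 for the zinc and copper genes, as did that of all genes (0.41). Outside that setting, 77 of 77 values of single metallothionein genes moved by less than the single-spot spread of 0.26. Several of these settings left the gene values unchanged or shifted all genes alike, so this count is not a measure of stability. MT1L was between 0.59 and 1.07, and passed 2-fold with the spike-ins set equal, whose 8 detected RNAs had a median of -0.43 and ran from -0.66 to -0.04. MT1A ran from -0.25 to 0.25 and MT1E from -0.25 to 0.24. With the brightest probe alone, MT1X was 0.31. No metallothionein probe was well above background on 1 array only, so no bound was computed. No paired analysis was possible because each group had 1 array. MT1G and MT1H lie under the detection limit of both arrays.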
